A study of Mus musculus with 9 samples.

Results

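The mitogen-activated protein (MAP) kinase phosphatases Dusp1, Dusp2, Dusp4, Dusp5, Dusp6, Dusp7, Dusp10 and Dusp16 were followed in RNA immunoprecipitation sequencing (RIP-seq) of activated mouse splenic B cells. They were taken by name, as the rows of the count table whose NCBI Gene number belongs to these 8 symbols. All 8 were found among the 27179 genes of the table, and all 8 had enough counts to be among the 13129 genes tested.

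RIP-seq sequences RNA pulled down together with a chosen protein. Here the protein was phosphorylated UPF1 (p-UPF1), the form of the RNA helicase UPF1 that recruits decay enzymes in nonsense-mediated mRNA decay. The 9 libraries were 3 from precipitates of a p-UPF1 antibody, 3 from precipitates of normal rabbit IgG, and 3 from the lysate before precipitation (input). All of them came from wild-type splenic B cells, purified by removing CD43+ cells and activated for 72 h. The stimuli were an antibody against IgM at 10 µg/mL, IL-4 at 20 ng/mL and, at 5 µg/mL, CD40L per the labels or an antibody against CD40 per the study's methods. The labels give no strain, age or number of mice for these libraries; the methods describe the mice of the whole study as age-matched adults of both sexes. The methods call the data points of the study's graphs independent biological replicates in general, without naming the cultures or mice behind these libraries. The p-values measure the spread between the libraries, which may be technical where they shared a source. Within a group, libraries are called A, B and C after their columns, and the sources do not state whether a letter shared by the groups marks 1 lysate.

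Dual-specificity phosphatases of this family switch MAP kinases off by removing the phosphates from both the threonine and the tyrosine of the activation loop. Transcription of several of them is itself turned on by MAP kinase signalling, which makes them negative feedback regulators, and the short-lived mRNA of Dusp1 is a textbook target of decay through AU-rich elements. In B cells, ERK, JNK and p38 are activated downstream of the antigen receptor and CD40. By location and substrate the family falls into inducible nuclear enzymes (Dusp1, Dusp2, Dusp4 and Dusp5), cytoplasmic enzymes directed at ERK (Dusp6 and Dusp7), and enzymes that prefer JNK and p38 (Dusp10 and Dusp16).

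AU-rich decay elements are built on the pentamer ATTTA, searched here on the sense strand of the 3′ UTR with overlapping matches counted. The windows below, of 30 bases each, are shown because they hold paired pentamers in mRNAs that came out on opposite sides in the p-UPF1 precipitate. Bases are those of the GENCODE M21 transcript on GRCm38, 5′ to 3′ in the sense of the gene, and capitals mark ATTTA.
Dusp1 3′ UTR, chr17:26506156-26506185, minus strand: gctggtccttATTTATTTAacacccccctc
Dusp2 3′ UTR, chr2:127337998-127338027, plus strand: aaattaATTTAattaattaATTTActatat
Dusp10 3′ UTR, chr1:184075517-184075546, plus strand: aaaaacaaaaATTTATTTAaaaaatatttt
Dusp16 3′ UTR, chr6:134715961-134715990, minus strand: gtaagatgtaATTTATTTAagaatgaaaac

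Library totals ran from 19873687 to 24945286 counts in input, from 17372510 to 18550508 in IgG and from 23251890 to 24802119 in p-UPF1, and replicates within a group correlated at r of 0.982 or higher in log2 CPM. IgG A stood apart from its replicates, with a chi-square per degree of freedom over genes of 9.94 and 9.89 in its pairs against 4.64 for IgG B and C, 2.83 to 4.04 within p-UPF1 and 1.38 to 1.73 within input. Results over IgG are given without it where a call changed. The 5 B cell markers Cd79a, Cd79b, Ms4a1, Cd22 and Pax5 summed to between 2436 and 2451 CPM (counts relative to the library total times its TMM factor) in input, against 0.606 to 0.917 CPM for 5 T cell markers. The 5 myeloid markers summed to 14.6 to 15.4 CPM in input, of which Cd68 alone gave a mean of 14.4 CPM while Lyz2, Csf1r, Itgam and S100a8 were each at 0.22 CPM or less, and the 3 plasma cell markers to 21.8 to 25.2 CPM, while both globin genes were at 0 in every library.

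The members differed widely in abundance in the activated B cells. On the scale of input CPM per kilobase of exon (mean ± SD, n = 3), Dusp4 was highest at 78.5 ± 1.5 and Dusp2 followed at 59.8 ± 1.17. Dusp16 stood at 13.1 ± 0.163. Next came Dusp10 at 7.29 ± 0.822, Dusp7 at 7.04 ± 0.463 and Dusp5 at 6.82 ± 0.197, whose libraries overlapped in range, so that these neighbours did not differ beyond their spread. Divided by its longest transcript instead, Dusp5 stood lower, at 5.01 CPM per kilobase. Dusp1 at 4.37 ± 0.288 and Dusp6 at 3.49 ± 0.353 were lowest. The order at the top changed in the IgG precipitate, where Dusp2 lay at 85.6 ± 2.37 and Dusp4 at 74.6 ± 5.14 CPM per kilobase. In the p-UPF1 precipitate Dusp4 was again first at 135 ± 1.98 CPM per kilobase, Dusp2 fell back to 36.8 ± 0.936 and Dusp16 reached 30.5 ± 0.636. Dusp6, last in input, was the fourth there at 12.8 ± 0.581 CPM per kilobase, in a range that overlapped with that of Dusp7 at 12.2 ± 0.257.

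To find which of these mRNAs the p-UPF1 antibody recovered beyond both backgrounds, p-UPF1 libraries were compared with IgG and with input. On the scale used, 0 stands for an RNA that behaved like the bulk of the mRNAs, not for an RNA that was not bound. Scaling to the mitochondrially encoded mRNAs instead moved the median of all genes to 4.66 over IgG and 5.00 over input and put all 8 members, and 96.9% of all genes, past both criteria given below, so directions are given relative to the bulk. On that footing Dusp6, Dusp16, Dusp7 and Dusp4 were higher in p-UPF1 than in both IgG and input, whereas Dusp1, Dusp2 and Dusp10 were lower than in both, and Dusp5 was near both. The fold minimums of the study's methods, 1 over IgG and 2 over input on the log2 scale, were applied, both at an adjusted P below 0.05. Adjusted P values throughout are Benjamini-Hochberg values over all genes tested, from the quasi-likelihood test in edgeR. The criterion over IgG was met by 3 of the 8 members (Dusp6, Dusp7 and Dusp16), beside 22.2% of all genes tested, and by the same number without IgG A. Of these 3, Dusp6 alone met it with library size or upper-quartile factors in place of TMM. In edgeR the criterion over input was met by 0 of 8, beside 6.31% of all genes, and both together by 0 of 8, beside 6.25%. With an unadjusted p under 0.05 in place of the adjusted one the count over input stayed at 0, as it did with DESeq2 and with limma-voom. Without a fold minimum 4 members were higher and 4 lower over IgG, beside 40.4% and 42.2% of all genes. Over input, 4 were higher and 3 lower, beside 40.8% and 42.6%. The 4 that were higher passed in both contrasts, beside 36.1% of all genes, and the 3 that were lower did so too, beside 37.4%. The median log2 fold change of the 8 was 0.33 over IgG and 0.43 over input, and that of all genes was -0.03 in both contrasts. The 2 contrasts share the p-UPF1 libraries.

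**Figure D1:**
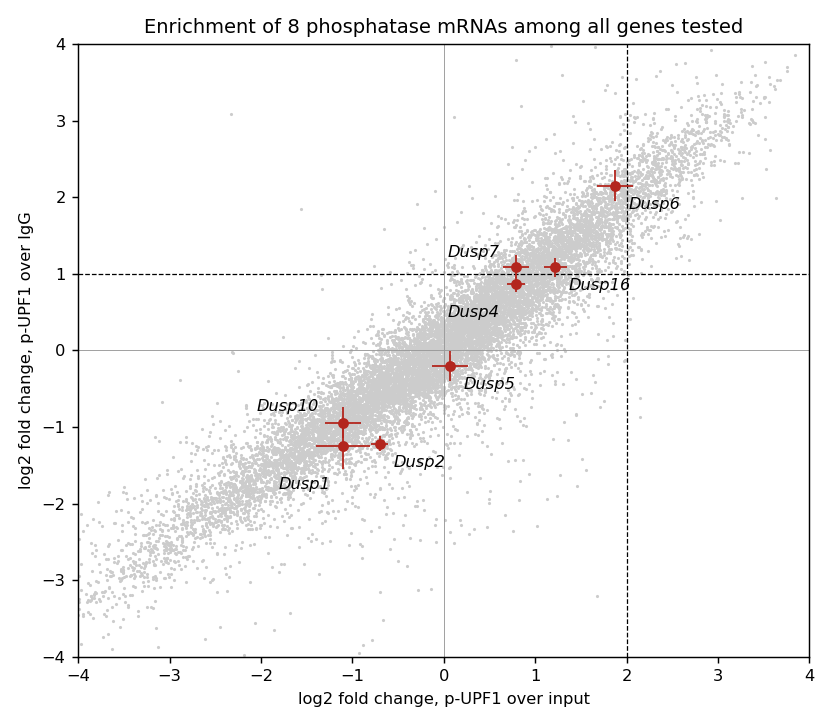
Log2 fold change of p-UPF1 over input (x axis) against p-UPF1 over IgG (y axis) for the 8 phosphatase mRNAs (red, with 95% confidence intervals from edgeR) and all 13129 genes tested (grey; genes beyond 4 on either axis are not drawn). Dashed lines mark the fold minimum of each criterion; Dusp6 lies at 1.87 on the x axis and 2.15 on the y axis, left of the minimum over input, and Dusp1, Dusp2 and Dusp10 lie below 0 on both.

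The cytoplasmic ERK phosphatases were both higher in p-UPF1. Dusp6 (Gene 67603, chr10:99263231-99267489, plus strand of GRCm38), which acts on ERK in the cytoplasm and is an ERK-induced gene, had 10.3, 10.3 and 8.61 CPM in input libraries A, B and C. It had 7.01, 8.27 and 8.82 CPM in IgG and 35.6, 37.4 and 34.1 CPM in p-UPF1. All 3 p-UPF1 libraries lay far above the other 6, whose ranges overlapped. Dusp6 was 4.44-fold higher than in IgG (log2 fold change 2.15, SE 0.10, adjusted P = 2.24e-12) and higher than 94.4% of all genes in this contrast. It was 3.65-fold higher than in input, with a log2 fold change of 1.87 (SE 0.09, adjusted P = 7.35e-12) and a 95% confidence interval of 1.67 to 2.07 that included the minimum of 2. Leaving out the filter on low counts moved it to 2.001 and past that minimum. An opposite-strand noncoding gene, Gm34921, overlaps the last exon of Dusp6, and another, 1700055D16Rik, overlaps an exon of Dusp16. Neither has a row in the count table, and whether reads were counted by strand is not stated for these libraries; the study's RNA-seq reads were mapped as unstranded. Reads of the overlapping strands can therefore not be told apart with certainty.

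Dusp7 (Gene 235584, chr9:106368560-106375724, plus strand), the close relative of Dusp6 with the same location and substrate, had 21.5, 23.3 and 24.6 CPM in input, 18.1, 18.4 and 19.6 CPM in IgG, and 40.3, 40.5 and 39.0 CPM in p-UPF1. The 3 groups did not overlap, with p-UPF1 highest and IgG lowest. It differed from IgG by a log2 fold change of 1.09 (SE 0.07, adjusted P = 1.78e-10) and from input by one of 0.79 (SE 0.07, adjusted P = 7.80e-09). When glmTreat tested the fold minimum over IgG itself, neither Dusp7 (adjusted P = 0.0779) nor Dusp16 (adjusted P = 0.0682) passed, and only Dusp6 did.

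The JNK and p38 phosphatases parted. Dusp16 (Gene 70686, chr6:134715468-134807063, minus strand), best known for acting on JNK, had 76.9, 77.3 and 75.5 CPM in input and 76.7, 80.8 and 94.0 CPM in IgG. In p-UPF1 it had 174, 180 and 180 CPM, all above the other 6 libraries. It differed from IgG by a log2 fold change of 1.09 (SE 0.06, adjusted P = 2.90e-11) and from input by one of 1.22 (SE 0.06, adjusted P = 5.52e-12). Dusp10 (Gene 63953, chr1:184034381-184075636, plus strand), which dephosphorylates p38 and JNK in nucleus and cytoplasm, had 21.2, 24.4 and 19.6 CPM in input and 18.7, 19.7 and 19.9 CPM in IgG. It had 10.3, 9.44 and 10.6 CPM in p-UPF1, below all input and IgG libraries. It differed from IgG by a log2 fold change of -0.94 (SE 0.10, adjusted P = 1.02e-07) and from input by one of -1.10 (SE 0.09, adjusted P = 1.05e-08).

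Among the inducible nuclear enzymes, Dusp1 and Dusp2 were lower in p-UPF1. Dusp1 (Gene 19252, chr17:26505591-26508472, minus strand), the immediate early phosphatase of p38, JNK and ERK, had 8.80, 8.83 and 7.85 CPM in input, 8.13, 9.90 and 10.3 CPM in IgG, and 4.47, 3.70 and 3.67 CPM in p-UPF1. The p-UPF1 libraries lay below all others, and input and IgG overlapped. Counts were between 81 and 217 reads per library, and the SE was the largest of the 8 over both backgrounds. It differed from IgG by a log2 fold change of -1.25 (SE 0.14, adjusted P = 2.67e-07) and from input by one of -1.10 (SE 0.14, adjusted P = 1.23e-06).

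Dusp2 (Gene 13537, chr2:127336159-127338377, plus strand), a nuclear phosphatase abundant in activated lymphocytes, had 97.5, 98.2 and 94.7 CPM in input, 138, 143 and 135 CPM in IgG, and 59.4, 58.2 and 61.2 CPM in p-UPF1. The 3 groups did not overlap, and IgG was the highest. It was 2.32-fold lower than in IgG (log2 fold change -1.22, SE 0.04, adjusted P = 1.15e-13) and 1.62-fold lower than in input (log2 fold change -0.70, SE 0.04, adjusted P = 1.88e-10). IgG exceeded input by 0.52 on the log2 scale (SE 0.04, adjusted P = 6.88e-08), so its distance from p-UPF1 depended on which background was used.

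Dusp4 (Gene 319520, chr8:34807610-34819894, plus strand), a nuclear phosphatase induced by ERK, had 187, 194 and 191 CPM in input, 167, 184 and 191 CPM in IgG, and 325, 334 and 327 CPM in p-UPF1. The 3 p-UPF1 libraries lay above all others, while IgG and input overlapped. It differed from IgG by a log2 fold change of 0.86 (SE 0.05, adjusted P = 2.85e-11) and from input by one of 0.79 (SE 0.05, adjusted P = 7.76e-11), short of both fold minimums. Dusp5 (Gene 240672, chr19:53529145-53541809, plus strand), a nuclear phosphatase specific for ERK, had 12, 12.7 and 12.4 CPM in input, 16.3, 13.5 and 15.1 CPM in IgG, and 13.4, 12.3 and 13.2 CPM in p-UPF1. The p-UPF1 range overlapped with that of input and ended just below the lowest IgG library. Its log2 fold change over input was 0.07 (95% confidence interval -0.13 to 0.27, adjusted P = 0.501). Over IgG it was -0.21 (SE 0.09, adjusted P = 0.0472), and this call was lost in 16 of 22 alternative settings, among them DESeq2 (adjusted P = 0.105) and 8 of the 9 settings that left out 1 library. Without IgG A it was -0.14 (adjusted P = 0.154).

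**Figure D2:**
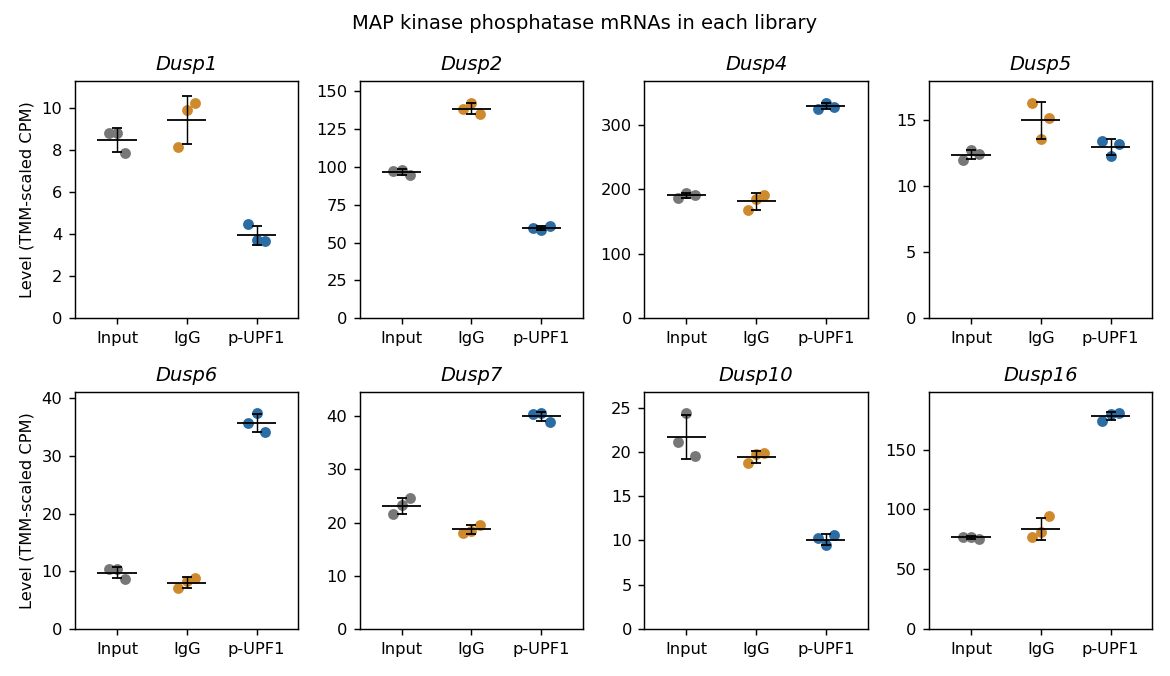
Level of each phosphatase mRNA in TMM-scaled CPM (y axis, starting at 0 and scaled separately for each gene) in the 3 input, 3 IgG and 3 p-UPF1 libraries; points are libraries A, B and C from left to right, and lines and bars give the mean ± SD. In Dusp4, Dusp6, Dusp7 and Dusp16 all p-UPF1 points lie above the other 6, and in Dusp1, Dusp2 and Dusp10 all lie below them.

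For 4 members the p-UPF1 libraries were all above the other 6, beside 37.0% of all genes, and for 3 they were all below, beside 37.6%. Log2 fold changes between the backgrounds, IgG over input, ran from -0.30 to 0.52 among the 8. At an adjusted P below 0.05, 4 of 8 differed, beside 52.9% of all genes. Dusp2 and Dusp5 were the 2 higher in IgG, beside 18.2% of all genes, and Dusp6 and Dusp7 the 2 lower, beside 34.7%. Dusp5 had a log2 fold change of 0.28 (adjusted P = 0.0203), Dusp6 of -0.28 (adjusted P = 0.0408) and Dusp7 of -0.30 (adjusted P = 2.00e-03) by this test. Of these 4, the call for Dusp6 was lost in 14 of 22 alternatives, that for Dusp5 in 4 and that for Dusp7 in 1. Dusp16, at 0.13 without a call, gained one in 9 of 22, and Dusp4 gained one in 1, without IgG C. The count of 4 was 2 without input A, 3 without IgG A and 5 without IgG C.

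A ratio of members within a library does not depend on how libraries are scaled to one another. The log2 ratio of Dusp6 to Dusp7 counts was -0.16 ± 0.04 in p-UPF1, -1.22 ± 0.13 in IgG and -1.25 ± 0.23 in input (SD, n = 3). Dusp6 thus gained on its closest relative by 1.06 over IgG and 1.09 over input, although both were higher in p-UPF1. The log2 ratio of Dusp10 to Dusp16 was -4.14 ± 0.10 in p-UPF1, -2.10 ± 0.12 in IgG and -1.82 ± 0.14 in input, a difference of -2.04 from IgG and -2.31 from input. That of Dusp4 to Dusp5 was 4.66 ± 0.09 in p-UPF1, 3.59 ± 0.21 in IgG and 3.94 ± 0.01 in input. In each of these 3 pairs the p-UPF1 libraries did not overlap with IgG or with input. Among single genes, 37.0% had all p-UPF1 libraries above the others and 37.6% had all below. A share over other gene pairs is not given. The ratio of Dusp1 to Dusp2 was -3.92 ± 0.17 in p-UPF1, -3.88 ± 0.19 in IgG and -3.51 ± 0.07 in input. Here too the p-UPF1 libraries all lay below input, with a difference of -0.41, but they overlapped with IgG. The precipitates differed by -0.03, less than either SD (exact permutation test, two-sided, p = 0.9). The sign of this small difference depended on which library was left out. The other 7 of the 8 comparisons each gave p = 0.1, the smallest an exact permutation test of 3 libraries against 3 can give (0.114 after Benjamini-Hochberg adjustment over the 8), so none could reach 0.05.

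**Figure D3:**
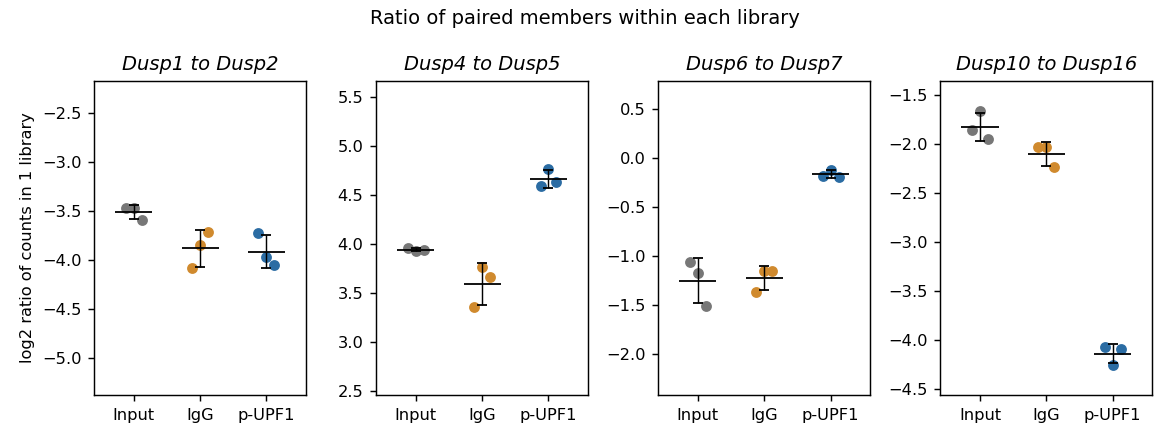
Log2 ratio of the counts of paired phosphatases within each library (y axis, a span of 3.2 log2 units in every panel) for input, IgG and p-UPF1; points are libraries A, B and C, and lines and bars give the mean ± SD. For Dusp10 to Dusp16 the ratio falls from -2.10 in IgG to -4.14 in p-UPF1, whereas for Dusp1 to Dusp2 both precipitates overlap.

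Over the 9 libraries, the 3 genes most alike each member were sought by the Euclidean distance of mean-centred log2 CPM among 8985 other genes with a mean of at least 10 CPM. For Dusp6 these were Bahd1, Haus2 and Hilpda (distances 0.204 to 0.266), for Dusp7 Gstcd, Aida and Psap (0.146 to 0.158), and for Dusp16 Gpbp1l1, Ogfod1 and Fbxw11 (0.140 to 0.150). For Dusp4 they were Matr3, Acox3 and Znrf2 (0.0977 to 0.117), and for Dusp5 Akap8l, Ocrl and Vps16 (0.171 to 0.192). For the members lower in p-UPF1 they were Gspt1, Gnptg and Dnajc21 (Dusp1, 0.281 to 0.308), Socs6, Uap1 and Vangl2 (Dusp2, 0.169 to 0.186), and Ppp1cb, Thoc7 and Cers5 (Dusp10, 0.212 to 0.214). No member was among the nearest genes of another, since members were left out of the search.

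Sequence features were read from 1 protein-coding GENCODE M21 transcript per gene, the one ranked first by APPRIS, then by support level, then by length, and other isoforms were not examined. These transcripts of the members had few exons. They held 3 to 7, against a median of 9 over 11866 tested genes with a coding transcript. In all 8 of them the stop codon lay in the last exon, with no exon junction downstream of it. The median over the 11866 genes was also 0 junctions. Only transcripts of the protein-coding type were read, so isoforms annotated as decay targets could not appear. A junction after the stop codon is the classical mark that leads to UPF1-dependent decay. The members lower in p-UPF1 had 3′ UTRs of 690 (Dusp1), 581 (Dusp2) and 1113 bases (Dusp10), and those higher had 1111 (Dusp4), 1189 (Dusp6), 1778 (Dusp7) and 2411 bases (Dusp16). That of Dusp5 had 1109 bases in the GENCODE transcript, which was 2473 bases long against 1815 in RefSeq. The median over all genes was 998 bases, and the Spearman correlation of 3′ UTR length with log2 fold change across the 11866 genes was 0.32 over IgG and 0.33 over input, given as a description since genes of one set of libraries are not independent. The GC content of the 3′ UTR (0.31 and 0.27, over 11746 genes) and the length of the transcript (0.28 and 0.33) correlated at similar values. Against the median 3′ UTR GC content of 44.7%, the higher members Dusp4 (45.7%) and Dusp7 (51.0%) lay above and Dusp6 (38.4%) and Dusp16 (43.4%) below. The lower members Dusp1 (42.9%) and Dusp10 (40.2%) lay below and Dusp2 (49.6%) above. By 3′ UTR length, Dusp4, Dusp6, Dusp7 and Dusp16 lay above the median of all genes, and Dusp1 and Dusp2 below it. Dusp10, also lower in p-UPF1, lay above it, with a 3′ UTR within 2 bases of that of Dusp4. Whether length or GC content bears on the side of a member was not tested. Upstream ATG triplets in the 5′ UTR numbered 7 in Dusp16, 4 in Dusp10, 1 in Dusp4 and Dusp6, and 0 in the others. The median over the 11866 genes was 1. The 5′ UTR of Dusp16, at 710 bases, was itself longer than that of 96.8% of these genes.

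The ATTTA pentamer was present in the 3′ UTR of 7 of the 8 members and of 66.4% of all 11866 genes. There were 4 in Dusp1 and in Dusp2, 3 in Dusp10 and in Dusp16, 2 in Dusp4, 1 in Dusp5 and in Dusp6, and none in Dusp7. The pentamer of Dusp5 lay past the RefSeq end of the gene given above, in the longer GENCODE 3′ UTR. The joined form ATTTATTTA, shown in the windows above, was held by Dusp1, Dusp10 and Dusp16, and by 5.67% of all genes. Dusp1 and Dusp10 were lower and Dusp16 was higher in p-UPF1, so that mRNAs with this element lay on both sides. Across all genes the number of pentamers correlated with the log2 fold change over IgG at a Spearman rho of 0.08. A match to these letters is a description of the transcript, not a measured binding site.

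Genes around the phosphatases in the pathway, taken as 9 lists by role, also lay on both sides. Of 68 such genes 61 were tested, and 4 met both criteria of the study, beside 6.25% of all genes (7 with an IgG library as TMM reference, beside 7.61%, and 8 without the filter on low counts, beside 5.38%). At an adjusted P below 0.05, 30 were higher and 21 lower over IgG, beside 40.4% and 42.2% of all genes. Over input 33 were higher and 20 lower, beside 40.8% and 42.6%. The median log2 fold change of the 61 was 0.49 with IgG and 0.40 with input as background. Among the 4 past both criteria, Ptpn7, a lymphoid tyrosine phosphatase that binds ERK and p38 through a kinase interaction motif, had 145, 155 and 158 CPM in input, 154, 155 and 155 CPM in IgG and 1283, 1303 and 1329 CPM in p-UPF1. It was 8.43-fold higher than in IgG (log2 fold change 3.08, SE 0.04, adjusted P = 2.62e-18) and 8.55-fold higher than in input (adjusted P = 9.93e-19), beyond any of the 8 phosphatases. The others of the 4 were Mapk14, the p38α kinase itself, at log2 values of 2.26 over IgG and 2.12 over input, Map3k14, the kinase NIK of the noncanonical NF-κB pathway (2.43 and 2.67), and the immediate early gene Ier2 (2.86 and 2.84).

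Counts of single lists below are over IgG at an adjusted P below 0.05 and stand beside the same 40.4% higher and 42.2% lower among all genes; the lists are small, and nothing is read from a list's share. Dusp8, a further JNK and p38 phosphatase, stood at log2 values of 1.07 over IgG and 1.18 over input, beside 1.09 and 1.22 for Dusp16. Dusp9, a relative of Dusp6 and Dusp7, did not pass in either contrast (adjusted P = 0.0650 and 0.0636) at 1.28 CPM in input. Among 10 atypical dual-specificity phosphatases tested, which lack the kinase-binding domain, 4 were higher and 3 lower over IgG. Dusp3 was the highest of them at 2.002 over IgG and 1.96 over input, and Dusp19 the lowest over IgG at -1.46. Of 6 Sprouty and Spred genes, inhibitors of ERK signalling upstream of the kinase, 3 were higher and 1, Spry2, was lower over IgG (log2 fold change -1.22).

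Of the kinase modules that the phosphatases act on, in the ERK module 3 of 8 genes were higher and 4 lower over IgG, with the scaffold Ksr1 highest at 2.30. In the JNK module Mapk9 (JNK2) stood at 0.96 and Mapk8 (JNK1) at -0.74 over IgG, and both kinases upstream, Map2k4 (0.63) and Map2k7 (1.29), were higher. In the p38 module 4 of 5 tested genes were higher over IgG and none lower. Of 10 MAP3 kinases, 5 were higher and 5 lower. Of 14 transcription factor genes that ERK induces, 6 were higher and 7 lower over IgG, with Jun (1.68) and Etv5 (1.68) among the former and Egr1 (-1.31), Junb (-1.55), Myc (-1.62) and Jund (-1.70) among the latter.

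**Figure D4:**
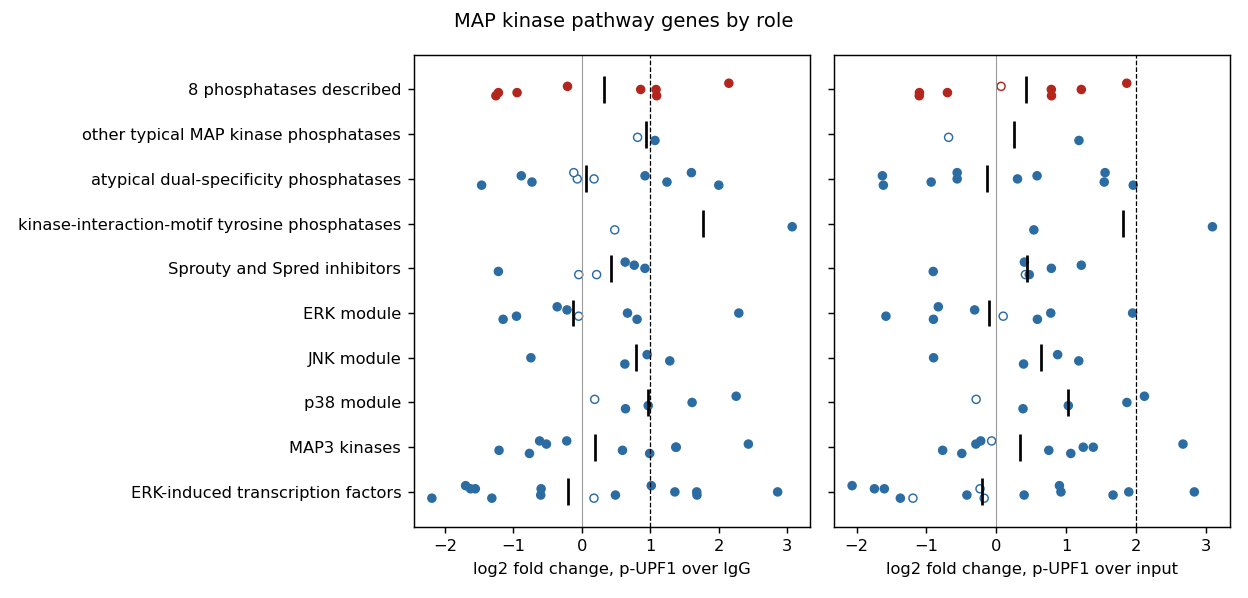
Log2 fold change of p-UPF1 over IgG (left) and over input (right) for the 8 phosphatases (red) and 9 lists of MAP kinase pathway genes (blue), 1 point per tested gene; filled points have an adjusted P under 0.05 by edgeR, short bars are list medians and dashed lines mark the fold minimum of each criterion. The 8 phosphatases run from -1.25 to 2.15 over IgG, and 4 genes of other lists lie above 2 over input.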

How the data were processed

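The deposited values were raw read counts per gene, made by the authors; the submitters' processing notes name cutadapt, HISAT2, featureCounts and mm10, without versions. The library kit was directional, and the methods give unstranded mapping for the study's RNA-seq; for RIP-seq, strand is not given in the sources used here. Reads carried no molecular identifiers, so precision from counting does not cover amplification. The columns name the group and a letter, and each was assigned to its group only.

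Genes passing edgeR's filterByExpr (minimum count 10, minimum total 15) were kept, 13129 in all, holding 99.9% of reads. TMM factors scaled the libraries, 1 model with 3 groups was fitted to all 9 libraries (6 residual degrees of freedom), and contrasts were tested two-sided with glmQLFit and glmQLFTest of edgeR and with Benjamini-Hochberg adjustment over all 13129 genes. Log2 fold changes used the default prior count of 0.125, with an SE worked back from the test statistic. CPM values are TMM-scaled, and levels per kilobase divide by the union of RefSeq exons. Pair ratios added 0.5 to each count. Symbols and positions come from RefSeq and UTRs from GENCODE M21, both on GRCm38. Tools were R 4.3.3, edgeR 4.0.16, limma 3.58.1 and DESeq2 1.42.0, and the fit was tested on simulated data. Named genes were the members, the fixed lists and the 3 nearest genes of each member. Members and lists were chosen with earlier results of these data known. Alternatives covered scaling, low-count filter, test, prior count, threshold, libraries in the fit, each library left out, the ratios' pseudocount, the length per kilobase and, added after seeing the data, the column letter as a block. Values of some listed genes are not reported here.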

Additional observations from a re-analysis of the deposited data

How the results depend on the processing

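Over 22 alternatives, which leave aside scaling to mitochondrially encoded mRNA and glmTreat, the 14 differences of the 7 members other than Dusp5 over IgG and over input held the same sign, and stayed below an adjusted P of 0.05, in 308 of 308 values. Fold minimums were less stable. The 3 members past the criterion over IgG became 1 (Dusp6) with library size alone, with upper-quartile factors and with glmTreat, and stayed at 3 with any library left out. The 0 members past the criterion over input, and past both, became 1 (Dusp6) without the filter on low counts. The 4 genes of other lists past both criteria became 7 with an IgG library as TMM reference and 8 without the filter, where 7.61% and 5.38% of all genes passed both. Of IgG over input, the 4 members that differed became 2 at an adjusted P under 0.01, and ranged from 2 to 5 when 1 library was left out (2 without input A, 5 without IgG C). Dusp4 over the same contrast, at -0.07 without a call, turned to 0.042 with library size alone, 0.033 with TMM on either an IgG or an input reference or with only the groups compared, and 0.015 without the filter.

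Scaling to mitochondrially encoded mRNA moved the median of all genes to 4.66 over IgG, 5.00 over input and 0.24 for IgG over input, so values there are to be read against those shifts. It put all 8 members past each criterion and past both, with 61 genes of other lists and 12719 of the 13129 genes tested. Dusp1 turned to 3.43 over IgG and 3.93 over input, Dusp2 to 3.48 and 4.34, Dusp10 to 3.75 and 3.94, and Dusp5 to 4.48 over IgG, all below the medians of all genes. For IgG over input, Dusp4 turned to 0.27, Dusp6 to 0.065, Dusp7 to 0.041 and Dusp10 to 0.19. The difference in the Dusp1 to Dusp2 ratio between p-UPF1 and IgG ranged from -0.136 without IgG A to 0.049 without IgG C, and was 0.034 without p-UPF1 C. With the longest transcript as length, input levels per kilobase moved to 69.5 for Dusp4, 5.01 for Dusp5 and 14.4 for Dusp16. The causes of these changes were not tested. Counts of Dusp1, 81 to 217 reads per library, bound its precision.

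The labels number the replicates and the count columns letter them, so that no numbered pairing could be used. As a choice made after seeing the data, the letter was fitted as a replicate block (4 residual degrees of freedom). Deviations from the group means correlated between libraries of the same letter at -0.005 to 0.05, with 0 of 9 pairs above 0.1. Between libraries of different letters they correlated at -0.056 to 0.022. These low values do not settle whether a letter marks a shared lysate, and the letters were not taken to pair the samples in the main fit. The replicate block left the 3, 0 and 0 members past the criteria over IgG, over input and both, the 4 that differed between IgG and input, and the 4 genes of other lists past both criteria. It ended the call of Dusp5 over IgG (-0.21, adjusted P = 0.0519) and no other call of a member. Over all genes, 5328 were higher and 5547 lower over IgG with the block, against 5299 and 5546 without it.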
